A study of Mus musculus with 101 samples.

Results

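The interferon-induced GTPases described here are 10 genes chosen by name: the guanylate-binding protein genes Gbp2, Gbp3, Gbp4, Gbp6 and Gbp7, and the immunity-related GTPase genes Iigp1, Irgm1, Irgm2, Igtp and Tgtp1. All 10 were found among the 24056 genes measured in each of 101 RNA sequencing libraries from the cortex of C57 mice. The mice were injected intraperitoneally with lipopolysaccharide (LPS, a cell wall component of Gram-negative bacteria) at 5 mg/kg, or with phosphate-buffered saline (PBS). The areas PFC (prefrontal cortex) and VCX, as the labels name them, were taken 1, 2 and 14 days later. Ribosomes of astrocytes carried a hemagglutinin (HA) tag and were pulled down with an antibody to it (IP libraries), and RNA of the cleared lysate served as input. At day 1, RNA of whole PFC tissue was sequenced as well.

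Each group of a day, area, fraction and treatment held 4 libraries, except the LPS groups of the day 2 PFC IP, the day 2 VCX input and the day 1 whole tissue, which held 3. The IP and input groups mixed both sexes, and the whole tissue libraries were all from females. The tagged ribosomes were precipitated from LPS and PBS mice alike. The promoter that drives the tag, the age of the mice and whether libraries come from separate animals are not given in the labels used here, so p-values measure the spread between these libraries, which may be technical. Values are FPKM, the reads of a gene scaled to its length and to the reads of the library. Libraries held from 4.21 M (mega) to 72.9 M reads as worked back from the FPKM steps, the median being 40.8 M, and 3 libraries, all day 14 inputs, held under 10 M. Markers of astrocytes summed to 13438 to 14256 FPKM in the day 1 PFC IP of PBS mice and to 918 to 1067 FPKM in the matching input, against 99.3 to 125 FPKM in the IP and 2564 to 2925 FPKM in the input for markers of neurons.

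In 1 library the values went against the label. The whole tissue library labelled PBS, replicate 3, had the highest value of its group in all 10 GTPase genes. The column header inside its file, as in 1 other whole tissue PBS file, differs from the title of its sample. Of these 2 headers, 1 is the title of another sample. The titles of all 7 whole tissue samples hold the letters LPS, so the treatment was taken from its own label field. Whole tissue results are therefore given with and without it.

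In the GENCODE annotation of the mm10 build, the build the submitters' processing notes name, Gbp7 (chr3:142530342-142550149, plus strand), Gbp3 (chr3:142560026-142573209, plus strand) and Gbp2 (chr3:142620602-142638008, plus strand) lie in a row on chromosome 3, and Gbp4 (chr5:105115767-105139586, minus strand) and Gbp6 (chr5:105270702-105293698, minus strand) on chromosome 5. Irgm1 (chr11:48861968-48871683, minus strand), Tgtp1 (chr11:48985327-48994172, minus strand), Igtp (chr11:58199556-58207591, plus strand) and Irgm2 (chr11:58199618-58222782, plus strand) lie on chromosome 11, and Iigp1 on chromosome 18. Some of these genes share annotated sequence, and how the authors' counting treated it is not given in the sources used here. Igtp and Irgm2 overlap on the same strand and share 162 exonic bases, 8.0% of the exonic bases of Igtp. Gbp6 shares 29% of its exonic bases with Gm43302, Gbp7 11.3% with Gm43802, a processed pseudogene, Tgtp1 7.0% with Gm12185 and Gbp4 0.8% each with Gbp8 and Gbp9. Tgtp1 also has a close copy, Tgtp2, to which its reads could be assigned. The split of reads between these pairs is uncertain.

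Both families are made by cells that sense an interferon, and both defend the inside of the cell. Guanylate-binding proteins are large GTPases of the dynamin superfamily that bind the membranes of pathogen vacuoles and the surface of bacteria in the cytosol, where they help to trigger caspase-11 and the inflammasomes. Immunity-related GTPases include effectors (Iigp1 and Tgtp1 here) that load onto the vacuole of Toxoplasma gondii and break it in mice, and regulators (Irgm1, Irgm2 and Igtp) that sit on the membranes of the cell itself and keep the effectors inactive there. Transcription of both families is driven by factors that interferon receptors activate or induce, IRF9 and IRF1 among them, through an interferon-stimulated response element (ISRE) or a gamma-activated site (GAS) near the gene's start.

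The promoter stretches around the ISRE core are shown for the members with a promoter entry. The part of this element in the changes described below was not tested. Of the 10 genes, 7 matched an entry in a RefSeq table of promoters (build GRCm38.p6, 250 bases before to 50 after each start), and Gbp3 had 2 entries. The ISRE core GAAANNGAAA was searched on both strands and its matches are in capitals, read along the gene's own strand, so a match on the other strand appears as its complement read backwards. Each stretch is 60 bases long.
Gbp2: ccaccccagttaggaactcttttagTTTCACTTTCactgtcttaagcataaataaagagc
Gbp3: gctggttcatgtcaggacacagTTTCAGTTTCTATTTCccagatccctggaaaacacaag
Gbp7: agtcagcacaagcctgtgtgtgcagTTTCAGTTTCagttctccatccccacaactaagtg
Igtp: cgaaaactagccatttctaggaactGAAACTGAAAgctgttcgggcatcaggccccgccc
Irgm1: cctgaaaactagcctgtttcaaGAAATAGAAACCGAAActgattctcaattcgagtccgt
Irgm2: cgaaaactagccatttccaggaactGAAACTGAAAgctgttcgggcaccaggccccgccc
Tgtp1: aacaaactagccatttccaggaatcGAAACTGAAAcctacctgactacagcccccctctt

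The stretches lie at chr3:142620579-142620638 for Gbp2, chr3:142559977-142560036 for Gbp3, chr3:142530258-142530317 for Gbp7, chr11:58199497-58199556 for Igtp, chr11:48871413-48871472 for Irgm1, chr11:58214888-58214947 for Irgm2 and chr11:48992289-48992348 for Tgtp1, on the strand of the gene. All 7 genes held the ISRE core (7 of their 8 promoters), against 3.44% of the 32851 promoters of the same length that were searched. The genes were chosen by name as interferon-induced, so this count is not independent of that choice. Gbp3 (at 1 of its 2 starts) and Irgm1 held 2 overlapping copies. The GAS core TTCNNNGAA was found for 4 of the 7 genes (4 of their 8 promoters), Gbp7, Igtp, Irgm2 and Tgtp1, against 8.3% of the promoters searched, and none of these overlapped an ISRE core. The stretches of Irgm2 and Igtp were identical at 58 of 60 bases. A match of letters does not show that a factor binds there.

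One day after the injection the mRNA of these GTPases was higher in the astrocyte IP of LPS than of PBS mice in both areas. In the PFC IP, 9 of the 10 members passed the filter on low values and all 9 rose (limma, Benjamini-Hochberg adjusted p under 0.05), against 11.8% of the 13163 genes tested that were higher. The same 9 rose in the VCX IP, where 11.6% of all genes tested were higher. Their median log2 change was 2.14 in PFC and 2.13 in VCX, and the median of all genes tested was -0.0 in PFC and -0.01 in VCX. The filter asks for 0.5 FPKM in as many libraries as the smallest group, and Gbp4 did not reach it. Iigp1 and Tgtp1 reached it only with the LPS libraries, so the filter favoured a rise in them. The count is 7 of 7 in each area for the members that reached it with PBS libraries alone. The share of all genes without overlap of LPS and PBS values was not computed for these IP comparisons or those of day 2.

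Among the guanylate-binding proteins, Gbp2, which is recruited to Toxoplasma vacuoles in mice, had 14.1, 8.97, 35.4 and 10.7 FPKM in the LPS libraries, against 1.56, 2.56, 1.38 and 2.25 FPKM in the PBS libraries of the PFC IP (replicates 1 to 4, in this order throughout). Every LPS value was above every PBS value, and the log2 change was 2.93 ± 0.39 (standard error, adjusted p = 0.000197, limma). Gbp3, its neighbour on chromosome 3, had 13.7, 9.87, 41.4 and 8.78 FPKM in the LPS libraries, against 2.74, 2.93, 2.19 and 2.09 FPKM in the PBS libraries. Replicate 3 stood far above the other LPS libraries in both genes, and all 4 LPS libraries were above all PBS libraries. Gbp3 rose by 2.57 ± 0.40 on the log2 scale (adjusted p = 0.000596, limma). Gbp6 had 4.46, 3.41, 11.2 and 3.86 FPKM in the LPS libraries, against 0.727, 1.16, 0.844 and 0.793 FPKM in the PBS libraries, a log2 change of 2.44 ± 0.31, and the groups did not overlap. Gbp7, which in mouse macrophages takes part in assembling the phagocyte oxidase, had 9.12, 9.15, 18.5 and 8.32 FPKM in the LPS libraries, against 4.76, 5.81, 5.72 and 5.66 FPKM in the PBS libraries. It was the highest of the 5 in PBS and changed least of the 4 that passed the filter, by 0.97 ± 0.23 (adjusted p = 0.00793, limma). Gbp4 had 0.147, 0.135, 0.263 and 0.123 FPKM in the LPS libraries, against 0.0804, 0.0567, 0.0484 and 0.0251 FPKM in the PBS libraries. These values were low in every library, although the LPS and PBS values did not overlap, and with no filter the log2 change was 0.80 ± 0.22 (adjusted p = 0.0264, limma).

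Among the immunity-related GTPases, the effector Iigp1 had 5.65, 3.61, 14.9 and 5.66 FPKM in the LPS libraries, against 0.158, 1.37, 0.382 and 0.226 FPKM in the PBS libraries of the PFC IP. It had the largest log2 change of the 9 tested members, 3.74 ± 0.52 (adjusted p = 0.000217, limma), and the PBS libraries themselves spanned a wide range without reaching an LPS value. The regulator Irgm1 was the most abundant member in both treatments, with 29.8, 24.2, 58 and 27.5 FPKM in the LPS libraries, against 6.43, 8.52, 7.27 and 7.75 FPKM in the PBS libraries. It rose by 2.14 ± 0.24 on the log2 scale (adjusted p = 2.98e-05, limma), with no overlap. The regulator Igtp had 14.9, 11.3, 41 and 13.7 FPKM in the LPS libraries, against 3.99, 4.67, 3.98 and 3.34 FPKM in the PBS libraries, a change of 2.14 ± 0.35. The regulator Irgm2 had 5.06, 3.94, 9.36 and 4.82 FPKM in the LPS libraries, against 1.22, 1.59, 1.45 and 1.55 FPKM in the PBS libraries, a change of 1.87 ± 0.26. Both rose without overlap of the groups. The effector Tgtp1 had 1.54, 0.196, 0.674 and 0.664 FPKM in the LPS libraries, against 0.0649, 0.334, 0.0615 and 0.235 FPKM in the PBS libraries. Its groups overlapped, and its change of 1.56 ± 0.44 (adjusted p = 0.0179, limma) was no longer called when PBS replicate 1 (1.27, adjusted p = 0.0697, limma), PBS replicate 3 (1.41, adjusted p = 0.063) or LPS replicate 1 (1.22, adjusted p = 0.0828) was left out.

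**Figure D1:**
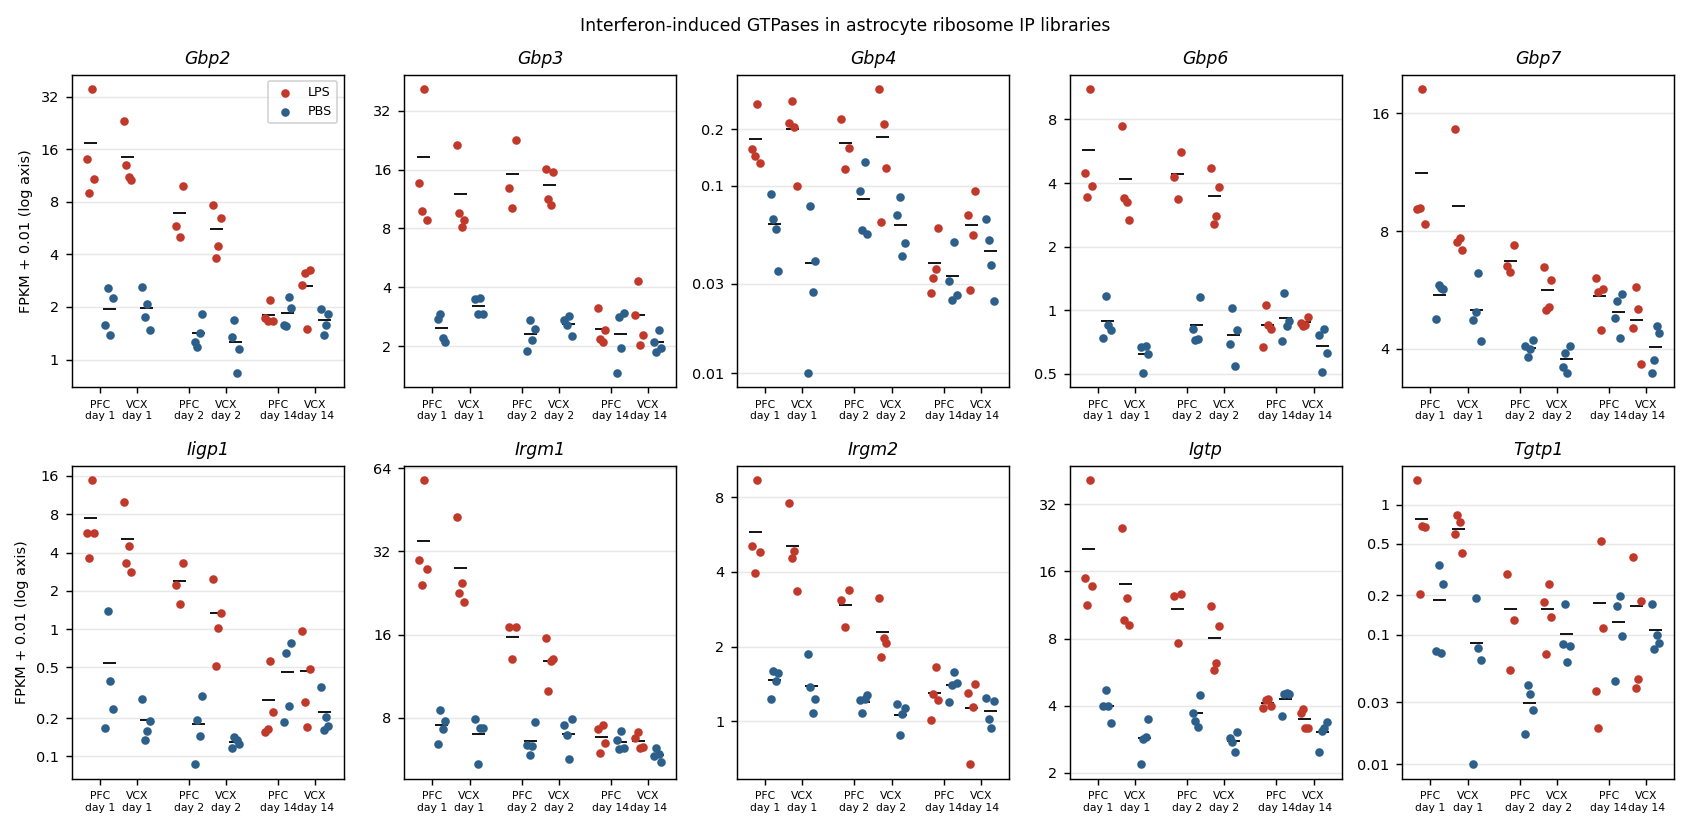
Levels of the 10 GTPase genes in the IP libraries, 1 panel a gene: FPKM plus 0.01 on a log axis, with its own range in each panel, 1 point a library, LPS (red) left of PBS (blue), lines at group means. At days 1 and 2 the LPS points lie above the PBS points in most panels, for example 8.97 to 35.4 FPKM against 1.38 to 2.56 FPKM for Gbp2 in the day 1 PFC, and at day 14 they overlap in all panels but that of Gbp6 in VCX. The share of all genes that separate in this way was not computed for the IP of days 1 and 2.

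In the VCX IP of day 1 Iigp1 again had the largest change of the tested members. Iigp1 had 10.004, 3.3, 4.47 and 2.81 FPKM in the LPS libraries, against 0.273, 0.125, 0.149 and 0.178 FPKM in the PBS libraries, a log2 change of 4.07 ± 0.52. Gbp2 had 23.2, 12.9, 11.1 and 10.6 FPKM in the LPS libraries, against 2.58, 1.74, 2.06 and 1.47 FPKM in the PBS libraries, a change of 2.77 ± 0.39. In both genes LPS replicate 1 was the highest library and no LPS value fell within the PBS range. Gbp3 had 21.3, 9.56, 8.12 and 8.85 FPKM in the LPS libraries, against 3.48, 2.93, 3.52 and 2.92 FPKM in the PBS libraries, a change of 1.74 ± 0.40. Among the regulators, Irgm1 had 42.8, 22.5, 24.6 and 21 FPKM in the LPS libraries, against 7.88, 5.41, 7.35 and 7.32 FPKM in the PBS libraries, a change of 1.92 ± 0.24. Replicate 1 was again the highest LPS library of both genes, and the groups stayed apart. Igtp changed by 2.14 ± 0.35 and Irgm2 by 1.76 ± 0.26. The effector Tgtp1 had 0.586, 0.827, 0.727 and 0.414 FPKM in the LPS libraries, against 0, 0.183, 0.0689 and 0.054 FPKM in the PBS libraries, a change of 2.13 ± 0.44 without overlap, and Gbp6 had 7.42, 3.37, 3.23 and 2.66 FPKM in the LPS libraries, against 0.659, 0.495, 0.669 and 0.61 FPKM in the PBS libraries, a change of 2.48 ± 0.31. Gbp7 had the smallest change, 0.81 ± 0.23 (adjusted p = 0.0222, limma), which was not called without PBS replicate 4 (0.64, adjusted p = 0.0517, limma) or LPS replicate 1 (0.60, adjusted p = 0.0551). Gbp4 had 0.207, 0.275, 0.196 and 0.0898 FPKM in the LPS libraries, against 0, 0.0679, 0.0171 and 0.0297 FPKM in the PBS libraries.

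Within the day 1 LPS groups of the IP 1 library of each area carried much of the spread. PFC replicate 3 was the highest of its group in 9 of the 10 members, Tgtp1 being the exception, and VCX replicate 1 was the highest in 8. The 10 members summed to 231 FPKM in PFC replicate 3 and to 98.4, 74.7 and 84.2 FPKM in the others, and to 153 FPKM in VCX replicate 1 and 74.5, 77.3 and 66.2 FPKM in the others. In the day 1 inputs PFC LPS replicate 1 was the highest of its group in 9 members and VCX LPS replicate 3 in 10. These high IP and input libraries were all from males. Whether they come from the same animal is not given in the labels, and the fits took all libraries as separate. Markers of other cells moved with the LPS groups as well, and their part in the change of the GTPases was not tested. In the PFC IP, markers of neutrophils and monocytes summed to 154 to 231 FPKM in LPS and 19.1 to 53.8 FPKM in PBS libraries (10 of 12 rose), and markers of microglia to 68.8 to 78.3 FPKM in LPS and 43.2 to 48.5 FPKM in PBS libraries (8 of 11 tested rose). Markers of T and NK cells summed to at most 0.187 FPKM in LPS and 0.136 FPKM in PBS libraries, and 1 of the 9 was at 0 in every LPS library. PFC replicate 3, with the highest GTPase levels, had the lowest sums of its group for neutrophil and monocyte markers (154 FPKM), microglia markers (68.8 FPKM) and endothelial markers (6.82 FPKM). In VCX replicate 1 the neutrophil and monocyte sum was likewise the lowest of its group, 136 FPKM. Its microglia sum was 59.4 FPKM, against 56.9, 72.9 and 64.8 FPKM in LPS replicates 2 to 4, and its endothelial sum 11.9 FPKM, against 9.64, 14.8 and 8.56 FPKM, neither the lowest of its group.

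In the input of day 1, which holds RNA of all cell types, all 10 members were tested. In PFC all 10 rose, against 8.15% of the 14676 genes tested that were higher, and in VCX 9 rose, against 7.8%. Gbp4, Gbp6, Iigp1 and Tgtp1 reached the filter only with the LPS libraries, so the filter favoured a rise in them. Of the 6 members that reached it with PBS libraries alone 6 rose in each area. The median log2 change of the members was 1.14 in PFC and 1.16 in VCX, and that of all genes tested -0.02 in PFC and -0.03 in VCX. In these bulk samples more cells that express a gene and more RNA per cell cannot be told apart. Gbp2 had 4.94, 3.08, 3.83 and 3.36 FPKM in the LPS libraries, against 1.01, 1.11, 1.42 and 1.2 FPKM in the PBS libraries of the PFC input, a change of 1.54 ± 0.20 (adjusted p = 5.3e-05, limma). Its groups did not overlap. Iigp1 had 2.18, 0.874, 1.5 and 1.44 FPKM in the LPS libraries, against 0.485, 0.41, 0.591 and 0.561 FPKM in the PBS libraries, a change of 1.29 ± 0.25, and Irgm1 had 9.65, 6.08, 8.38 and 6.43 FPKM in the LPS libraries, against 3.08, 3.28, 2.92 and 3.66 FPKM in the PBS libraries, a change of 1.15 ± 0.15. Here too all LPS values were above all PBS values. Gbp4 had 0.866, 0.505, 0.615 and 0.549 FPKM in the LPS libraries, against 0.277, 0.232, 0.194 and 0.12 FPKM in the PBS libraries, a change of 1.23 ± 0.32 (adjusted p = 0.0139, limma), and in VCX 0.369, 0.704, 1.08 and 0.351 FPKM in the LPS libraries, against 0.275, 0.254, 0.151 and 0.337 FPKM in the PBS libraries, a change of 0.91 ± 0.32 that did not pass the threshold (adjusted p = 0.0584, limma). Without LPS replicate 1 the PFC changes of Gbp4 (1.06, adjusted p = 0.0556, limma) and Gbp6 (0.82, adjusted p = 0.0633, limma) were not called. Tgtp1 was not called when any 1 of 5 of the 8 PFC libraries was left out, the change without LPS replicate 3 being the smallest (0.84, adjusted p = 0.137, limma). In VCX it was not called without PBS replicate 3 (1.09, adjusted p = 0.068, limma) or LPS replicate 3 (1.12, adjusted p = 0.0642, limma).

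In the same PFC input Gbp3 had 1.73 to 5.01 FPKM in LPS and 0.996 to 1.37 FPKM in PBS libraries, a change of 1.15 ± 0.29. Gbp6 had 0.407 to 1.02 FPKM in LPS and 0.112 to 0.349 FPKM in PBS libraries, a change of 1.03 ± 0.27. Gbp7 had 2.31 to 3.71 FPKM in LPS and 1.08 to 1.39 FPKM in PBS libraries, a change of 1.03 ± 0.19. The regulator Irgm2 had 1.21 to 2.0 FPKM in LPS and 0.544 to 1.04 FPKM in PBS libraries, a change of 0.86 ± 0.21. Igtp had 4.02 to 6.87 FPKM in LPS and 1.98 to 2.43 FPKM in PBS libraries, a change of 1.05 ± 0.17. Tgtp1 had 0.217 to 0.812 FPKM in LPS and 0.0536 to 0.213 FPKM in PBS libraries, a change of 1.12 ± 0.35. None of these ranges overlapped between treatments, and over all genes tested the LPS values were above all PBS values in 12.7%. Microglia markers summed to 438 to 513 FPKM in LPS and 268 to 276 FPKM in PBS inputs of PFC (10 of 12 rose and 2 fell), endothelial markers to 81.8 to 93.6 FPKM in LPS and 50.01 to 53 FPKM in PBS inputs (5 of 10 rose), and neutrophil and monocyte markers to 38.4 to 66.9 FPKM in LPS and 8.78 to 15.3 FPKM in PBS inputs (6 of 7 tested rose). Their part in the change of the GTPases was not tested.

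In the VCX input of day 1, LPS values of all 10 members were above the PBS values, as in 12.4% of the genes tested. Gbp2 had 3.44, 3.51, 6.03 and 3.23 FPKM in the LPS libraries, against 0.695, 0.993, 1.08 and 1.32 FPKM in the PBS libraries, a log2 change of 1.83 ± 0.20 (adjusted p = 8.33e-06, limma). Iigp1 had 1.1, 1.26, 1.99 and 0.84 FPKM in the LPS libraries, against 0.406, 0.377, 0.362 and 0.421 FPKM in the PBS libraries, a change of 1.41 ± 0.25. LPS replicate 3 was the highest library of its group in all 10 members. Irgm1 had 6.11, 6.89, 9.15 and 7.85 FPKM in the LPS libraries, against 4.02, 3.73, 3.29 and 3.98 FPKM in the PBS libraries, a change of 0.92 ± 0.15, and Gbp7 had 2.16, 2.69, 3.59 and 2.27 FPKM in the LPS libraries, against 1.26, 1.18, 0.892 and 1.49 FPKM in the PBS libraries, a change of 1.04 ± 0.19. Gbp3 changed by 1.16 ± 0.29, Gbp6 by 1.40 ± 0.27, Igtp by 1.02 ± 0.17, Irgm2 by 1.16 ± 0.21 and Tgtp1 by 1.27 ± 0.35. Markers of other cells were higher with LPS as well: those of microglia summed to 373 to 452 FPKM in LPS and 247 to 257 FPKM in PBS inputs of VCX (9 of 12 rose and 2 fell). Neutrophil and monocyte markers summed to 42.1 to 60.6 FPKM in LPS and 8.69 to 9.91 FPKM in PBS inputs (6 of 7 tested rose), and endothelial markers to 84.7 to 90.3 FPKM in LPS and 44.8 to 55.7 FPKM in PBS inputs (6 of 10 rose). Their part in the VCX changes was not tested.

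In whole PFC tissue at day 1, Gbp2 had 8.19, 11.1 and 12.3 FPKM in the LPS libraries, against 0.767, 1.1, 6.56 and 1.05 FPKM in the PBS libraries. Iigp1 had 3.9, 4.83 and 5.86 FPKM in the LPS libraries, against 0.182, 0.484, 3.42 and 0.22 FPKM in the PBS libraries. Replicate 3 was the one high PBS library in both. Gbp4, so low in the IP, had 1.53, 2.17 and 2.76 FPKM in the LPS libraries, against 0.142, 0.161, 1.52 and 0.204 FPKM in the PBS libraries, and Irgm1 had 17.7, 18.3 and 22.7 FPKM in the LPS libraries, against 3.55, 3.73, 14.6 and 3.66 FPKM in the PBS libraries. The value of replicate 3 labelled PBS was the highest PBS value in all 10 members, at 2.93 times (Irgm2) to 11.6 times (Iigp1) the mean of the other 3. With that library in the group, none of the 10 members was called by limma, against 0.00676% of the 14788 genes tested (1 gene) that was higher. All 10 had an unadjusted p under 0.05, and limma-voom on the recovered reads called 1. The LPS values were still above all PBS values in all 10 members, as in 12.5% of the genes tested. Without the library all 10 rose, against 6.28% of genes tested, with a log2 change of 3.25 ± 0.17 for Gbp2 (adjusted p = 2.43e-06, limma), 3.66 ± 0.28 for Iigp1, 2.99 ± 0.21 for Gbp4 and 2.33 ± 0.09 for Irgm1, and the smallest, 1.88 ± 0.12, for Irgm2. The library was picked out by its values of these same genes, so these calls are not independent of that choice. Gbp4, Gbp6, Iigp1 and Tgtp1 were under 0.5 FPKM in the other PBS libraries and reached the filter only with the LPS libraries. In the library labelled PBS, replicate 3, microglia markers summed to 630 FPKM, against 649 to 737 FPKM in the LPS libraries and 326 to 384 FPKM in the other PBS libraries. Neutrophil and monocyte markers summed to 31.4 FPKM in it, against 39.9 to 53.4 FPKM in LPS and 6.60 to 10.2 FPKM in the other PBS libraries. Whether the library is mislabelled was not tested.

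**Figure D2:**
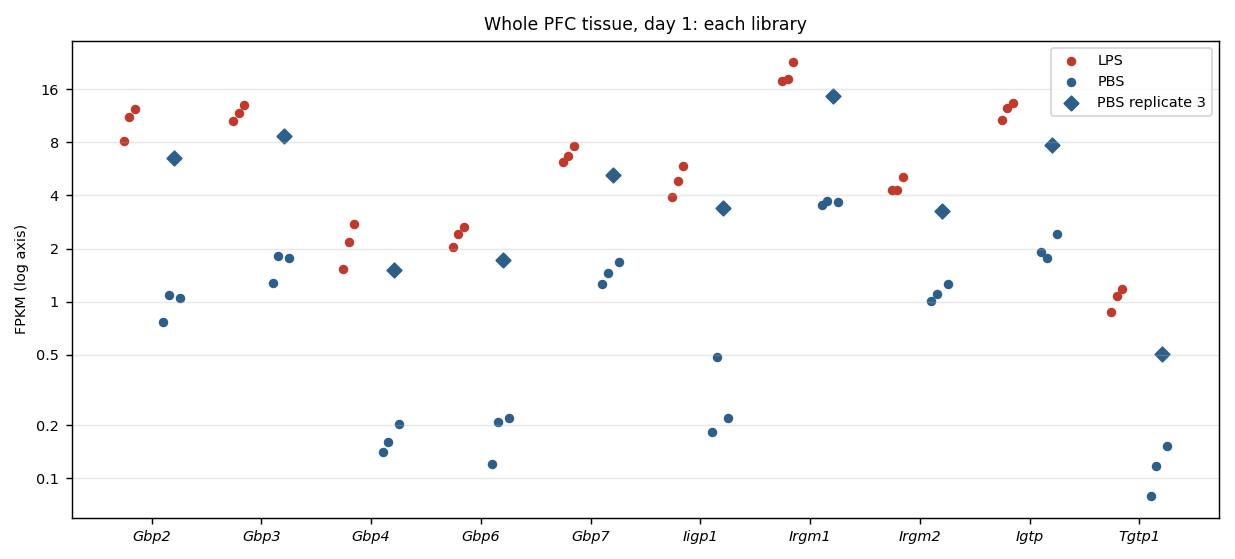
Levels of the 10 GTPase genes in whole PFC tissue at day 1: FPKM on a log axis, 1 point a library, LPS (red) left of PBS (blue), with the library labelled PBS, replicate 3, as a diamond. The diamond lies between the LPS points and the other PBS points in every gene, for Gbp2 at 6.56 FPKM between 8.19 and 1.10 FPKM.

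The PBS libraries show where these mRNAs stood without LPS. Of the 10 members, 7 were higher in the astrocyte IP than in the input on every day: Gbp2, Gbp3, Gbp6, Gbp7, Irgm1, Irgm2 and Igtp. In all, 44.7% of genes tested were higher in the IP at day 1, 44.2% at day 2 and 43.4% at day 14, so a large share of all genes was higher as well. Gbp7 differed most, with 4.76 to 5.81 FPKM in the IP and 1.08 to 1.39 FPKM in the input of PFC at day 1. Its log2 difference over both areas was 2.66 ± 0.16 at day 1, 2.60 ± 0.09 at day 2 and 2.62 ± 0.10 at day 14. Gbp6 followed at day 1 with 1.90 ± 0.20, Gbp3 with 1.86 ± 0.26, Irgm1 with 1.69 ± 0.15, Irgm2 with 1.56 ± 0.17, Gbp2 with 1.39 ± 0.22 and Igtp with 1.24 ± 0.20. Gbp4 went the other way, with 0.0251 to 0.0804 FPKM in the IP and 0.12 to 0.277 FPKM in the input of PFC. Its log2 difference was -0.90 ± 0.20 at day 1 (adjusted p = 0.000167, limma), where 43.8% of genes tested were lower, and -0.35 ± 0.17 at day 2 (adjusted p = 0.0643, limma), where 43.0% were lower. At day 14 no member was lower among those tested, against 44.0% of genes, and Gbp4 was not tested there (with no filter -0.71, adjusted p = 8.51e-06, limma). Neither effector was called: Iigp1 differed by -0.05 ± 0.29 at day 1 (adjusted p = 0.869, limma) and Tgtp1 by 0.03 ± 0.29 (adjusted p = 0.913, limma), and Iigp1 by -0.33 ± 0.23 at day 2 and 0.17 ± 0.28 at day 14, also not called. Tgtp1 missed the filter at days 2 and 14, and with no filter it was lower in the IP at day 2, with a log2 difference of -0.48 ± 0.18 (adjusted p = 0.02, limma), and not called at day 14 (-0.04, adjusted p = 0.923). Other markers differed between the fractions too. Astrocyte markers were higher in the IP (10 of 10 on each day) and microglia markers lower (12 of 12 on each day), while neutrophil and monocyte markers were higher for 11 of 12 at day 1 (median log2 difference 1.62), 9 of 12 at day 2 (2 lower) and 5 of 7 tested at day 14 (1 lower). In the day 1 PFC of PBS mice the neutrophil and monocyte markers summed to 19.1 to 53.8 FPKM in the IP and 8.78 to 15.3 FPKM in the input, and the part of these cells in the differences was not tested. The scaling factors matter here, since without them the median of all genes shifts by -0.64 at day 1. The directions of the 7 higher members and of Gbp4 stayed, and Gbp2 at day 2 was no longer called (0.30, adjusted p = 0.107, limma). Without them Gbp4 (-0.68) and Iigp1 (-0.79) were called lower at day 2.

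In limma the LPS effect itself was larger in the IP than in the input for 6 members on each of days 1 and 2. The difference was largest for Iigp1. On these days Iigp1, Gbp4 and, where tested, Tgtp1 reached the filter of the fit over both fractions only with the LPS libraries. Over both areas the difference of the effects was 2.69 ± 0.42 on the log2 scale for Iigp1 at day 1 (adjusted p = 4.24e-05, limma) and 2.08 ± 0.34 at day 2 (adjusted p = 0.000376, limma). At day 1, 6 of the 10 members had a larger effect in the IP, against 9.32% of genes tested. The other 5 were Gbp6 with 1.34 ± 0.28, Gbp2 with 1.2 ± 0.31, Igtp with 1.12 ± 0.28, Irgm1 with 1.00 ± 0.21 and Irgm2 with 0.85 ± 0.23. At day 2, 6 of 9 tested had a larger effect in the IP, against 2.34%. They were Iigp1, Gbp6 with 1.23 ± 0.24, Gbp3 with 1.17 ± 0.19, Igtp with 0.98 ± 0.20, Gbp2 with 0.94 ± 0.26 and Irgm2 with 0.60 ± 0.16. Gbp7 had a difference of -0.13 ± 0.22 at day 1 and 0.08 ± 0.13 at day 2, and Gbp4 of 0.10 ± 0.29 and -0.22 ± 0.26, none of which was called. At day 14 none of 8 tested members differed (1 with an unadjusted p under 0.05, and 0 by limma-voom), against 0.0% of genes. The calls depended on the model: limma-voom on recovered reads called 2 members at day 1, Iigp1 (2.83, adjusted p = 0.0272) and Irgm1 (0.99, adjusted p = 0.0187), and 3 at day 2, Iigp1, Gbp3 and Igtp. At day 2 the calls of Gbp2 and Irgm2 were also lost when any 1 of 20 libraries (Gbp2) or 17 libraries (Irgm2) was left out. Markers of other cells also had a larger LPS effect in the IP: those of microglia for 7 of 12 at each of days 1 and 2 (1 smaller on each day), and those of neutrophils and monocytes for 5 of 12 at day 1 (median log2 difference 0.99) and 6 of 12 at day 2 (1.45). The count was 1 of 10 and 0 of 10 for astrocyte markers and 0 of 10 on both days for endothelial markers. Their part in the difference of the GTPases was not tested.

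**Figure D3:**
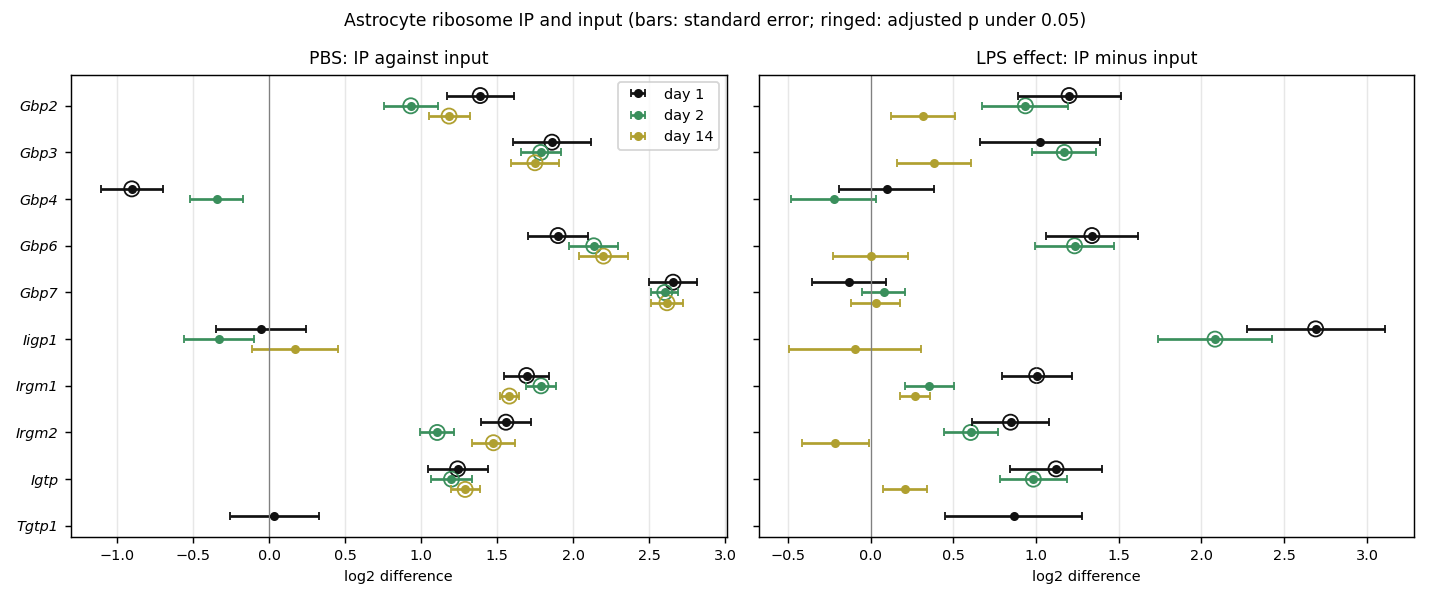
Log2 difference of each GTPase gene between IP and input in PBS libraries (left) and between the LPS effects in IP and input (right), by day, over both areas, from the limma fit. Bars are standard errors and rings mark an adjusted p under 0.05, with members that missed the filter left blank. Gbp7 lies farthest right in PBS, at 2.66 on day 1, and Iigp1 in the difference of the LPS effects, at 2.69 on day 1.

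At day 2 the tested members were still higher with LPS in the astrocyte IP. In the PFC IP 8 of 8 tested members rose, against 5.08% of the 13452 genes tested, and in the VCX IP 8 of 8, against 4.16%. Gbp4 and Tgtp1 missed the filter. Iigp1 reached it only with the LPS libraries, so the filter favoured a rise in it. Of the other 7 members 7 rose in each area. Gbp3 had 12.8, 10.1 and 22.6 FPKM in the LPS libraries, against 1.89, 2.72, 2.14 and 2.45 FPKM in the PBS libraries of the PFC IP, a log2 change of 2.63 ± 0.25 (adjusted p = 4.54e-05, limma). Iigp1 had 2.21, 1.56 and 3.32 FPKM in the LPS libraries, against 0.0765, 0.182, 0.135 and 0.29 FPKM in the PBS libraries, a change of 3.25 ± 0.40. In both genes all LPS values were above all PBS values. Gbp2 had 5.77, 5.01 and 9.8 FPKM in the LPS libraries, against 1.25, 1.17, 1.4 and 1.82 FPKM in the PBS libraries, a change of 2.18 ± 0.30, and Irgm1 had 17, 13 and 17 FPKM in the LPS libraries, against 6.38, 5.83, 6.32 and 7.68 FPKM in the PBS libraries, a change of 1.26 ± 0.16. These groups did not overlap either. Gbp6 had 4.27, 3.36 and 5.61 FPKM in the LPS libraries, against 0.802, 0.714, 0.721 and 1.14 FPKM in the PBS libraries, a change of 2.26 ± 0.26, and Igtp had 12.3, 7.66 and 12.7 FPKM in the LPS libraries, against 3.71, 3.41, 3.21 and 4.44 FPKM in the PBS libraries, a change of 1.53 ± 0.24. Irgm2 changed by 1.26 ± 0.17, and Gbp7 changed least again, by 0.74 ± 0.10, with 6.51, 6.26 and 7.37 FPKM in the LPS libraries, against 4.06, 3.8, 3.99 and 4.2 FPKM in the PBS libraries. In the VCX IP of day 2 Iigp1 had 2.47, 0.499, 1.01 and 1.32 FPKM in the LPS libraries, against 0.107, 0.133, 0.124 and 0.115 FPKM in the PBS libraries, and Gbp3 had 16.1, 11.3, 10.5 and 15.5 FPKM in the LPS libraries, against 2.73, 2.57, 2.86 and 2.25 FPKM in the PBS libraries. In both, LPS and PBS values did not overlap. The VCX changes were 2.49 ± 0.37 for Iigp1, 2.28 ± 0.23 for Gbp3, 2.05 ± 0.28 for Gbp2, 2.03 ± 0.24 for Gbp6, 1.44 ± 0.22 for Igtp, 1.01 ± 0.15 for Irgm2, 0.84 ± 0.15 for Irgm1 and 0.56 ± 0.09 for Gbp7. Tgtp1 was low at 0.0431 to 0.28 FPKM in LPS and 0.00709 to 0.0311 FPKM in PBS libraries of PFC. Neutrophil and monocyte markers summed to 80.6 to 204 FPKM in LPS and 8.21 to 25.2 FPKM in PBS libraries of the PFC IP, microglia markers to 66.4 to 89.6 FPKM in LPS and 38.1 to 44.1 FPKM in PBS, and T and NK cell markers to 0.327 to 0.636 FPKM in LPS and 0.0468 to 0.0784 FPKM in PBS libraries. Their part in the change was not tested.

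In the input of day 2, in PFC 7 of 9 tested members rose, against 3.17% of the 14661 genes tested, and in VCX 3 rose (Gbp2, Gbp3 and Irgm1), against 1.8%. Gbp4, Gbp6 and Iigp1 reached the filter only with the LPS libraries, and of the 6 members that reached it with PBS libraries alone 4 rose in PFC and 3 in VCX. By limma-voom 9 of 9 were called in PFC and 6 in VCX. Tgtp1 missed the filter, with 0.221 to 0.53 FPKM in LPS and 0.137 to 0.194 FPKM in PBS inputs of PFC. Gbp3 had 3.0, 2.7, 2.47 and 3.37 FPKM in the LPS libraries, against 1.04, 0.895, 1.16 and 1.31 FPKM in the PBS libraries of the PFC input, a log2 change of 1.26 ± 0.14 (adjusted p = 7.3e-05, limma). In VCX it had 2.63, 3.29 and 2.5 FPKM in the LPS libraries, against 0.977, 0.841, 1.04 and 1.14 FPKM in the PBS libraries, a change of 1.36 ± 0.15 (adjusted p = 0.000133, limma), and the groups did not overlap in either area. Gbp2 changed by 1.55 ± 0.20 in PFC and 0.91 ± 0.22 in VCX, where its adjusted p was 0.0489 (limma) and the call was lost without any 1 of 5 libraries. Without LPS replicate 2 the change was smallest (0.58, adjusted p = 0.416, limma). Irgm1 changed by 0.94 ± 0.11 in PFC and 0.51 ± 0.12 in VCX (adjusted p = 0.0442, limma), and in VCX it was not called when any 1 of 6 of the 7 libraries was left out, with the smallest change without LPS replicate 2 (0.28, adjusted p = 0.318, limma). The log2 changes of the other members were 1.10 ± 0.26 (Iigp1), 1.05 ± 0.24 (Gbp6), 1.03 ± 0.26 (Gbp4), 0.55 ± 0.15 (Igtp), 0.83 ± 0.15 (Irgm2) and 0.50 ± 0.15 (Gbp7) in PFC, where Gbp7 and Igtp were not called. In VCX none of these was called, with 0.77 ± 0.28 for Iigp1, 0.98 ± 0.26 for Gbp6, 1.10 ± 0.28 for Gbp4, 0.51 ± 0.17 for Igtp, 0.33 ± 0.16 for Irgm2 and 0.69 ± 0.17 for Gbp7. The PFC count was 4 of 9 without PBS replicate 4 or LPS replicate 4. It was also 4 without LPS replicate 1, where Gbp4 missed the filter. The VCX count was 1 without PBS replicate 1, PBS replicate 3 or LPS replicate 2. Microglia markers summed to 547 to 744 FPKM in LPS and 267 to 310 FPKM in PBS inputs of PFC, where 11 of 12 rose.

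The change from day 1 to day 2 was tested as the difference of the LPS effects, and day cannot be told apart from the sequencing project, since every day has its own project number in the labels. Of 9 members tested in the VCX IP, 1 had a smaller effect at day 2, against 4.41% of the genes tested. This was Irgm1, with 15.5, 9.95, 12.8 and 13 FPKM in the LPS and 7.52, 6.93, 5.65 and 7.88 FPKM in the PBS libraries of day 2, and 42.8, 22.5, 24.6 and 21 FPKM in the LPS and 7.88, 5.41, 7.35 and 7.32 FPKM in the PBS libraries of day 1. The difference was -1.07 ± 0.31 (adjusted p = 0.0315, limma), and it was not called when any 1 of 6 libraries was left out, with the smallest difference without LPS replicate 1 of day 1 (-0.85, adjusted p = 0.0642, limma). In the PFC IP none of 9 members was called, against 2.64% of genes (1 member with an unadjusted p under 0.05, and 0 by limma-voom). Irgm1 was nearest there too, with -0.85 ± 0.32 (adjusted p = 0.137, limma). Gbp3 was the only tested member with a positive difference in the IP, 0.10 ± 0.50 in PFC and 0.54 ± 0.48 in VCX, which was not called. In the inputs none of 10 was called in PFC, against 1.52%, or in VCX, against 1.07% (2 and 4 members with an unadjusted p under 0.05, and 0 by limma-voom in both).

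**Figure D4:**
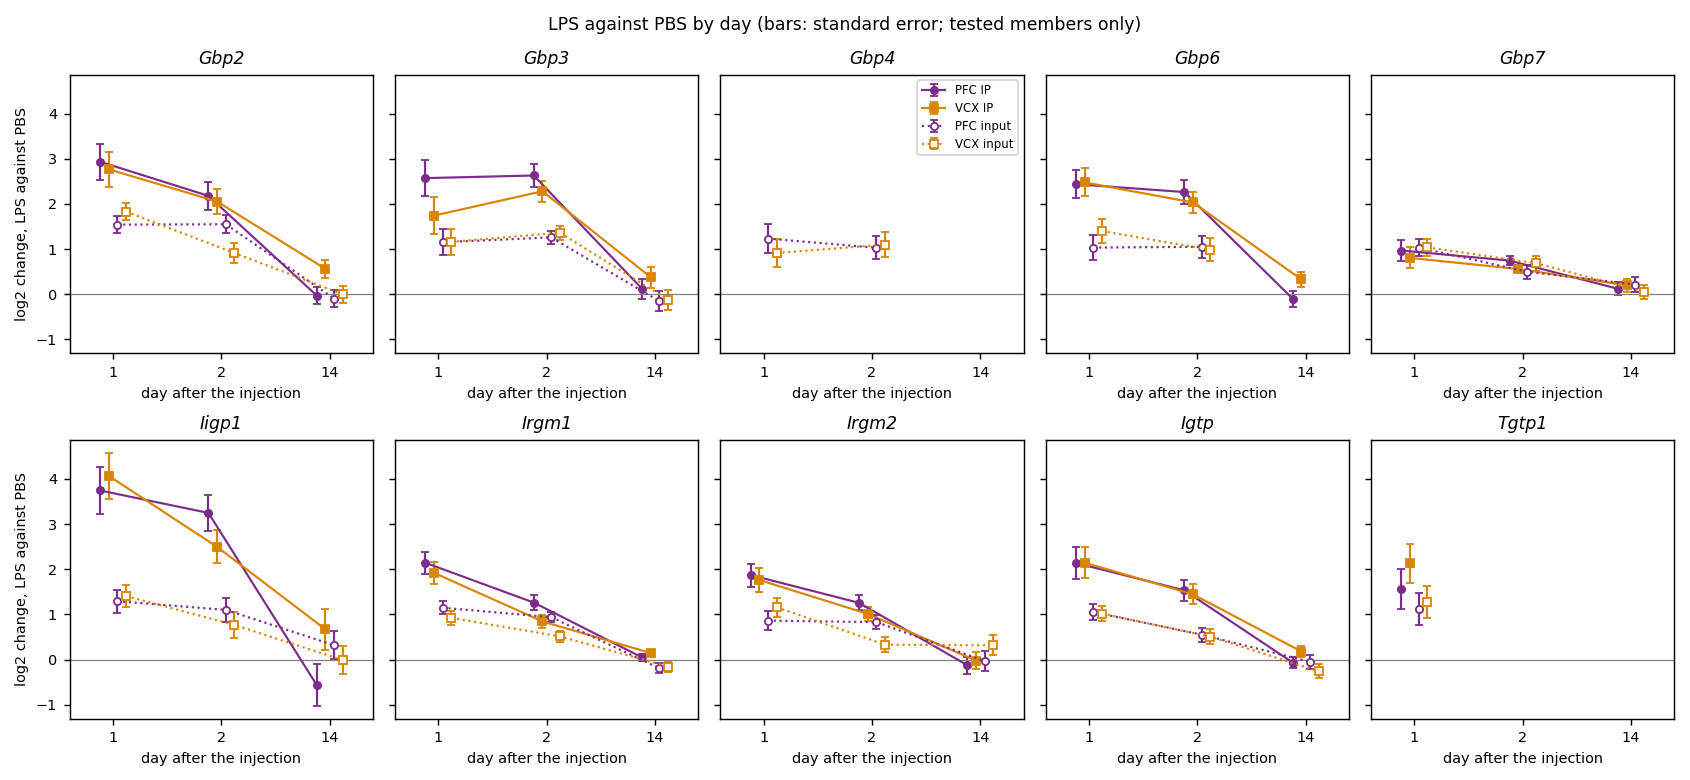
Log2 change of each GTPase gene, LPS against PBS, at days 1, 2 and 14 (spaced evenly), for the IP (filled points) and input (open points) of PFC (purple) and VCX (orange). Bars are standard errors from the limma fit, and members that missed the filter are left blank. Iigp1 starts highest in the IP, at 3.74 in PFC and 4.07 in VCX, and at day 14 no member was called.

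At day 14 no member was called in any of the 4 comparisons, against 0.0% of genes tested in the PFC IP, 0.0% in the VCX IP, 0.0% in the PFC input and 0.0% in the VCX input that were higher. By limma, 1 member had an unadjusted p under 0.05 in the VCX IP and 0 in the other 3 comparisons, and limma-voom called 0 in each. Gbp2 in the VCX IP had 2.67, 3.11, 1.49 and 3.24 FPKM in the LPS libraries, against 1.94, 1.37, 1.56 and 1.82 FPKM in the PBS libraries, a log2 change of 0.56 ± 0.20, and in the PFC IP -0.03 ± 0.20. Irgm1 had 7.28, 5.96, 7.53 and 6.48 FPKM in the LPS libraries, against 6.62, 6.15, 7.18 and 6.19 FPKM in the PBS libraries of the PFC IP, a change of 0.05 ± 0.07. The groups overlapped in both genes. Iigp1 ranged from 0.146 to 0.547 FPKM in LPS and from 0.175 to 0.767 FPKM in PBS libraries of the PFC IP, and its change was -0.56 ± 0.46 there and 0.67 ± 0.46 in VCX. Gbp3 had 2.09 to 3.12 FPKM in LPS and 1.45 to 2.95 FPKM in PBS libraries of the PFC IP, Gbp7 had 4.45 to 6.07 FPKM in LPS and 4.26 to 5.53 FPKM in PBS libraries, and Igtp had 3.9 to 4.27 FPKM in LPS and 3.59 to 4.53 FPKM in PBS libraries. Gbp6 was the 1 member whose LPS values lay above all PBS values at day 14, in the VCX IP, with 0.837 to 0.924 FPKM in LPS and 0.503 to 0.806 FPKM in PBS libraries, as in 0.733% of the genes tested there, and its change of 0.33 ± 0.17 was not called (adjusted p = 0.999, limma). Over all tested members the log2 changes ran from -0.56 (Iigp1) to 0.12 (Gbp3) in the PFC IP, -0.02 (Irgm2) to 0.67 (Iigp1) in the VCX IP, -0.19 (Irgm1) to 0.32 (Iigp1) in the PFC input and -0.26 (Igtp) to 0.32 (Irgm2) in the VCX input, with 8 tested in each IP and 7 in each input. Iigp1 just reached the filter at this day, with 4 libraries in each fraction, 2 of them PBS.

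The areas were compared next, as the study's design states. The LPS effect of no member differed between PFC and VCX in limma. This holds for the IP of day 1 (9 members tested, against 0.0% of genes called in either direction), day 2 (0.0%) and day 14 (0.0%). It holds as well for the input of day 1 (0.0%), day 2 (0.00682%) and day 14 (0.0%). The unadjusted p was under 0.05 for 2 members in the day 2 input and for 0 in the other 5, and limma-voom called 0 in all 6. The difference at day 1 in the IP was 0.83 ± 0.57 for Gbp3, 0.17 ± 0.56 for Gbp2, 0.22 ± 0.34 for Irgm1, -0.32 ± 0.73 for Iigp1, -0.04 ± 0.44 for Gbp6, 0.16 ± 0.33 for Gbp7, 0.11 ± 0.36 for Irgm2, -0.01 ± 0.49 for Igtp and -0.57 ± 0.62 for Tgtp1. At day 2 it ran over 8 members from 0.09 (Igtp) to 0.75 (Iigp1), and at day 14 from -1.23 (Iigp1) to -0.08 (Gbp7). In the input the range was -0.36 (Gbp6) to 0.32 (Gbp4) at day 1, -0.19 (Gbp7) to 0.64 (Gbp2) at day 2 and -0.35 (Irgm2) to 0.33 (Iigp1) at day 14. Between the PBS libraries of both areas 1 member was called in 1 of 6 comparisons. This was Igtp in the IP of day 14, with 3.59, 4.53, 4.53 and 4.52 FPKM in PFC and 2.48, 3.07, 3.18 and 3.39 FPKM in VCX, a log2 difference of 0.51 ± 0.11 (adjusted p = 0.0146, limma), against 4.8% of genes called. Without PFC replicate 2 or 4 it was not called (0.47, adjusted p = 0.0605, limma without replicate 2, and 0.48, adjusted p = 0.0552 without replicate 4). The same difference was 0.44 ± 0.35 at day 1 and 0.39 ± 0.22 at day 2, neither called. No member was called in the IP of day 1 (8.16% of genes) or day 2 (7.62%), nor in the input of day 1 (13.5%), day 2 (15.9%) or day 14 (7.7%). The unadjusted p was under 0.05 for 1 member in the day 2 input and 0 in the other 4, and limma-voom called 0 in all 5.

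The rest of the pathway was described from lists chosen by role, with earlier results of these data known. For the counts here and in the next paragraph, 11.8% of all genes tested were higher in the day 1 PFC IP and 11.6% in the VCX IP. The share was 8.15% in the day 1 PFC input and 7.8% in the VCX input, and at day 2 5.08% in the PFC IP and 4.16% in the VCX IP. List genes could also reach the filter through LPS libraries alone, and the counts are not split by this. Of 7 interferon genes none reached the filter. Ifng, the type II interferon, was above 0 in 19 of 101 libraries with at most 4 reads (0.128 FPKM, in the day 14 PFC input of PBS). Ifne was above 0 in 9 libraries, Ifna2 in 5, Ifnb1 in 2 and Ifna4 in 1, each with at most 4 reads, and Ifna1 and Ifna5 were listed at 0 in all 101. Of 7 receptor and Janus kinase genes, 3 rose in the day 1 PFC IP, by little: Ifnar2 by 0.33 ± 0.09, Ifngr1 by 0.31 ± 0.06 and Jak2 by 0.28 ± 0.07 on the log2 scale. In the VCX IP the same 3 rose, by 0.27 ± 0.09, 0.23 ± 0.06 and 0.31 ± 0.07. Of 7 tested transcription factors of the response, 6 rose in each area. Irf7, which carries the type I response, rose by 3.20 ± 0.46 in PFC, with a mean of 7.85 FPKM in LPS and 0.61 FPKM in PBS libraries. Nlrc5, a transactivator of MHC class I genes, rose by 2.44 ± 0.29 and Irf9 by 2.12 ± 0.20. Irf2 did not pass, at -0.02 ± 0.09. At day 2, 6 of 7 rose in each area of the IP as well, Irf7 by 2.82 ± 0.23 in PFC. No gene of the list fell in these comparisons.

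Feedback inhibitors rose too. Of 5, 4 rose in the day 1 PFC IP: Usp18, which blocks the type I receptor, by 4.49 ± 0.52, Socs3 by 2.28 ± 0.21, Ptpn6, a phosphatase abundant in blood cells, by 1.82 ± 0.24 and Socs1 by 1.01 ± 0.28. Of 14 other interferon-induced GTPases 6 were tested in the day 1 PFC IP and 6 rose, with Gbp5 at 3.18 ± 0.38, Mx1 at 2.83 ± 0.43, Gm4951 at 2.79 ± 0.41 and Ifi47 at 2.66 ± 0.34. In the VCX IP 6 of 6 rose as well. Of 6 inflammasome genes 3 were tested in the PFC IP and rose, Gsdmd by 1.5 ± 0.22, Casp1 by 1.09 ± 0.22 and Pycard by 0.68 ± 0.20. In the input 5 of 6 rose, Pycard most, by 2.16 ± 0.20. The LC3 conjugation genes, several of whose products are needed to place these GTPases on vacuoles in mice, changed little. Of 11, 2 rose in the day 1 PFC IP, Gabarapl1 by 0.47 ± 0.07 and Map1lc3b by 0.40 ± 0.07, and 0 of 11 rose at day 2 in either area.

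The genes outside these lists whose log2 level was most like the mean log2 level of the 10 members over the 47 IP libraries were Slfn8 (Pearson r = 0.983), Parp14 (0.975), Ifit1 (0.974), Xaf1 (0.973), Trim30a (0.972) and Isg15 (0.970), of 12990 genes ranked. The libraries fall into LPS and PBS groups, so the difference between these enters the likeness. Within the 15 LPS libraries of days 1 and 2 r lay between 0.932 and 0.957, and within the 24 PBS libraries between 0.261 (Xaf1) and 0.864 (Ifit1). Ifit1, whose protein binds viral RNA ends, had 12.8 to 39.8 FPKM in LPS and 0.774 to 3.44 FPKM in PBS libraries of the day 1 PFC IP, with no overlap.

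**Figure D5:**
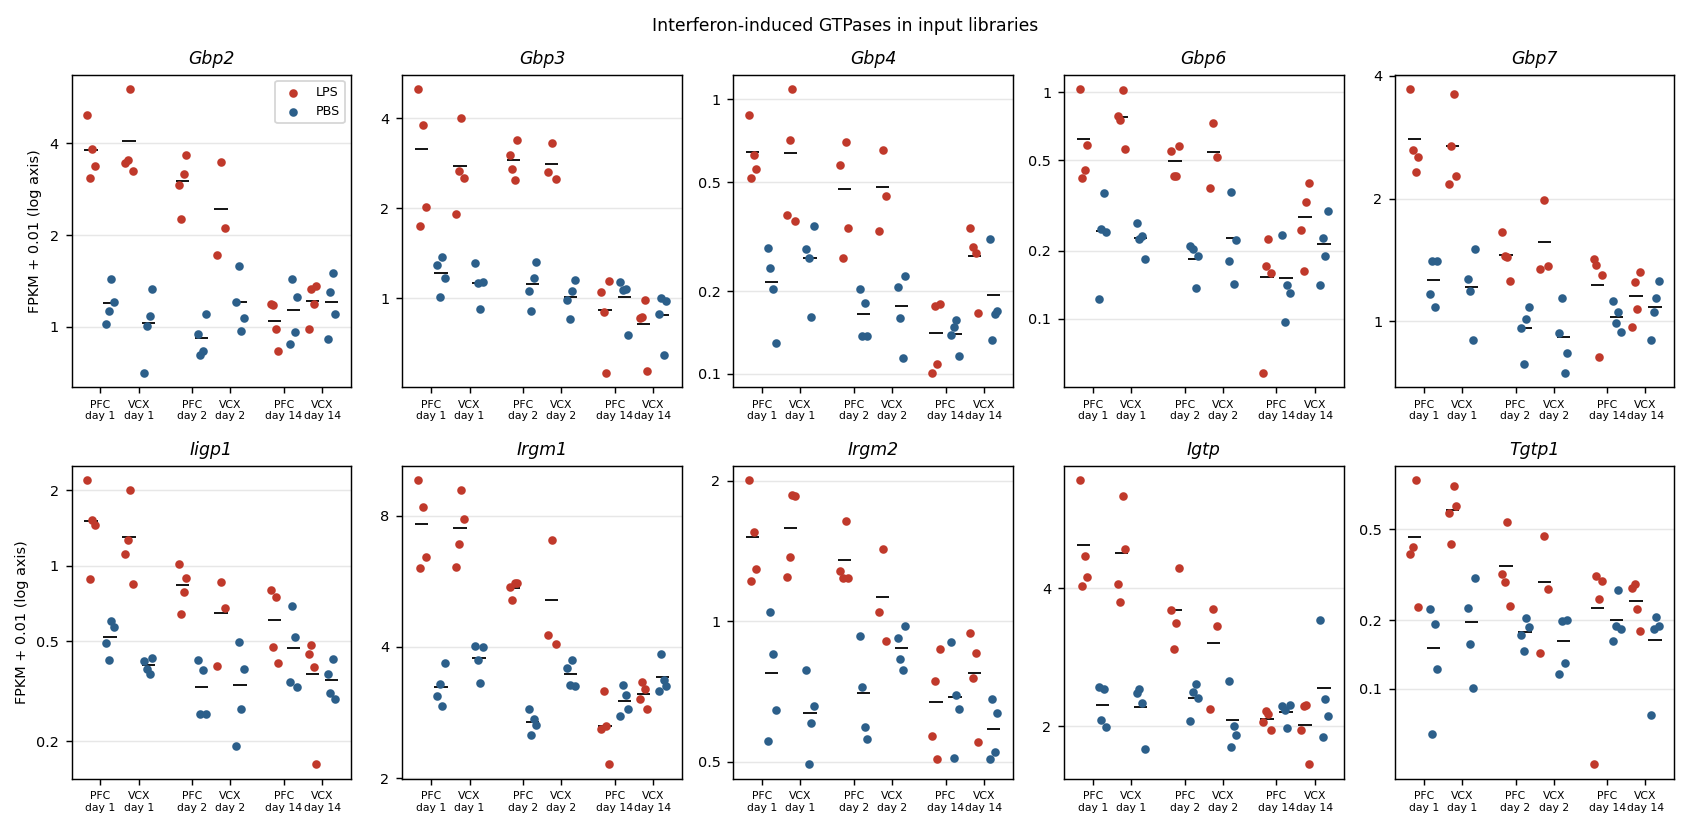
Levels of the 10 GTPase genes in the input libraries, drawn as for the IP: FPKM plus 0.01 on a log axis, 1 point a library, LPS (red) left of PBS (blue), lines at group means. In the day 1 PFC the LPS points of all 10 genes lie above the PBS points, as in 12.7% of the genes tested. For Gbp2 they lie at 3.08 to 4.94 FPKM against 1.01 to 1.42 FPKM.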

How the data were processed

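RNA sequencing values were taken as FPKM, which the authors had computed per gene and deposited as 1 table per library. STAR, HTSeq and the mm10 build are named per the submitters' processing notes, and versions, filters and the strand setting are not given in the sources used here. Each table listed 24060 entries. The 4 entries with a repeated symbol were left out, and 24056 genes were joined by symbol. Groups came from the treatment, area, fraction and day labels. FPKM were divided by TMM factors computed over all genes, a pseudocount of 0.1 was added and log2 values were tested with limma 3.58.1 in R 4.3.3 (trend and robust options, sex as a covariate except in whole tissue). Fold changes on this scale understate the change of low genes. A gene was tested if the number of libraries with 0.5 FPKM or more was no smaller than the smallest group of the fit, p-values were adjusted by Benjamini-Hochberg over all genes tested, and a call needs an adjusted p under 0.05. Each comparison was fitted on all libraries of its day and fraction, or of both fractions or days for differences of effects. Whole reads were recovered from the FPKM steps for 99.999% of values (within 0.05 of a whole number), and limma-voom on them called 2833 genes in the day 1 PFC IP. The recovery chose its steps by the same limit, so this share is no separate check of the reads. The scripts were tested on simulated data. The 10 members and all gene lists were chosen with earlier results of these data known. By rule the text names the 10 members (some as a range where none was called), up to 4 called genes with the largest change per list, all detected interferons, and the 6 genes most like the members' mean level, except that 1 gene of the transcription factor list is not reported here. Replicates are numbered in accession order and pair no samples. Other pseudocounts, filters, scaling factors, covariates, models and left-out libraries were tried.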

Additional observations from a re-analysis of the deposited data

Results flagged for a closer look

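Of 230 sets of values, 1 for each member and group of 4 libraries, 15 (6.52%) held a library far from the others by Dixon's test, and chance alone flags about 1 in 20. The far library was the highest for Gbp2 in replicate 3 of the day 14 PFC IP of LPS (2.17 FPKM, the others at 1.65 to 1.72 FPKM), Gbp2 in replicate 3 of the day 1 PFC whole tissue of PBS (6.56 FPKM, the others at 0.767 to 1.1 FPKM) and Gbp2 in replicate 3 of the day 1 VCX input of LPS (6.03 FPKM, the others at 3.23 to 3.51 FPKM). A high library also stood apart for Gbp3 in replicate 1 of the day 1 VCX IP of LPS (21.3 FPKM, the others at 8.12 to 9.56 FPKM), Gbp4 in replicate 3 of the day 1 PFC whole tissue of PBS (1.52 FPKM, the others at 0.142 to 0.204 FPKM) and Gbp7 in replicate 3 of the day 1 PFC IP of LPS (18.5 FPKM, the others at 8.32 to 9.15 FPKM). High values were flagged too for Gbp7 in replicate 1 of the day 1 VCX IP of LPS (14.6 FPKM, the others at 7.16 to 7.69 FPKM), Irgm1 in replicate 3 of the day 1 PFC whole tissue of PBS (14.6 FPKM, the others at 3.55 to 3.73 FPKM) and Irgm2 in replicate 3 of the day 2 PFC input of LPS (1.63 FPKM, the others at 1.23 to 1.27 FPKM). The far library was the lowest for Gbp3 in replicate 4 of the day 14 PFC input of PBS (0.744 FPKM, the others at 1.05 to 1.12 FPKM), Gbp7 in replicate 3 of the day 14 PFC input of LPS (0.807 FPKM, the others at 1.29 to 1.41 FPKM) and Gbp7 in replicate 1 of the day 1 PFC IP of PBS (4.76 FPKM, the others at 5.66 to 5.81 FPKM). A low library also stood apart for Igtp in replicate 1 of the day 14 PFC IP of PBS (3.59 FPKM, the others at 4.52 to 4.53 FPKM), Tgtp1 in replicate 1 of the day 14 PFC input of LPS (0.0366 FPKM, the others at 0.238 to 0.302 FPKM) and Tgtp1 in replicate 1 of the day 14 VCX input of PBS (0.0671 FPKM, the others at 0.173 to 0.197 FPKM).

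The LPS effect differed between IP and input, by a test of the difference itself (limma, adjusted p under 0.05), for Gbp2 (1.2 ± 0.31), Gbp6 (1.34 ± 0.28), Iigp1 (2.69 ± 0.42), Irgm1 (1.00 ± 0.21), Irgm2 (0.85 ± 0.23) and Igtp (1.12 ± 0.28) at day 1, each a log2 difference with its standard error. At day 2 it differed for Gbp2 (0.94 ± 0.26), Gbp3 (1.17 ± 0.19), Gbp6 (1.23 ± 0.24), Iigp1 (2.08 ± 0.34), Irgm2 (0.60 ± 0.16) and Igtp (0.98 ± 0.20). Iigp1 reached the filter of these fits only with the LPS libraries. By limma-voom on recovered reads, only Iigp1 and Irgm1 were called at day 1, and only Iigp1, Gbp3 and Igtp at day 2. At day 2 the calls of Gbp2, Gbp6 and Irgm2 were also lost with a pseudocount of 0.01. In the VCX IP the LPS effect on Irgm1 differed between day 2 and day 1, by -1.07 ± 0.31. This difference was not called when any 1 of 6 libraries was left out.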

How the results depend on the processing

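Over all members, comparisons and alternatives 6156 values were recomputed, and none that had been called changed its sign. Of these, 5763 kept their direction and side of the threshold, 108 lost their call, 48 gained one and 237 values that were not called changed sign. The day 1 and day 2 IP counts of members called moved by less than 1.5 times under every alternative run. Members called with limma-voom in place of limma on log2 values were 1 against 0 in whole tissue, 6 against 3 in the day 2 VCX input, 2 against 6 for the IP minus input difference at day 1 and 3 against 6 at day 2, where a pseudocount of 0.01 also gave 3. The day 2 VCX input gave 1 when its 2 groups were fitted alone, and the day 2 input gave 1 member between PFC and VCX in PBS with RLE factors, against 0. With 1 library left out, the count ran from 0 to 10 in whole tissue (10 without PBS replicate 3), 4 to 7 in the day 2 PFC input, 1 to 4 in the day 2 VCX input, 0 to 1 for day 2 minus day 1 in the VCX IP and in the VCX input, and 0 to 1 between PFC and VCX in PBS in the day 14 IP. The cause was not tested. No paired analysis was possible because the labels number no replicates across groups. Depth limits the low members: Gbp4 had 0 to 620 reads a library (median 25) and Tgtp1 0 to 278 (median 18).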
